A study of Mus musculus with 22 samples.

Results

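The transcripts of 9 enzymes of the citric acid cycle, Cs, Idh3a, Idh3g, Idh2, Ogdh, Suclg1, Fh1, Mdh2 and Mdh1, were followed in mouse mammary tissue that held freshly engrafted cancer cells. They were taken by gene symbol, 9 of the 52526 distinct symbols in the deposited tables, with earlier results of these data known. All 9 were above the lowest deposited value in each of the 22 mice and were among the 15138 genes tested.

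The mice were C57BL/6J females of 7 to 8 weeks. They lived for 2 weeks with a running wheel (Wheel) or with the hub of a wheel alone (Control), and the tissue was taken 24 hours after EO771 cells were placed in the mammary fat. EO771 is a mammary tumor line that shares the strain of these hosts, an immunocompetent strain, and the cells carried luciferase. Mice of both activities received liposomes filled either with PBS buffer or with clodronate, which is toxic to the phagocytes that swallow the liposomes, which gave 6 Control+PBS, 6 Wheel+PBS, 5 Control+Clodronate and 5 Wheel+Clodronate mice. All the groups share the graft and the liposome injection. The labels place all mice in a single experiment and give no other batch.

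The citric acid cycle runs in the mitochondrial matrix of nearly every cell. It takes the acetyl group of acetyl-CoA, which comes from pyruvate, fatty acids or amino acids, and oxidises it to carbon dioxide while handing electrons to the respiratory chain. Its intermediates also leave the mitochondrion, and in fat tissue exported citrate is the source of carbon for fatty acid synthesis. Cs joins acetyl-CoA to oxaloacetate to form citrate. Idh3a and Idh3g are subunits of the NAD-dependent isocitrate dehydrogenase, and Idh2 is the NADP-dependent mitochondrial form. Ogdh is the first enzyme of the 2-oxoglutarate dehydrogenase complex, and Suclg1 is the shared subunit of the succinyl-CoA ligases. Fh1 hydrates fumarate to malate, and Mdh2 oxidises malate to oxaloacetate. Mdh1 is the cytosolic malate dehydrogenase, which works with Mdh2 in the malate-aspartate shuttle.

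The promoter sequences show what the start sites of the members with the largest clodronate differences look like. A promoter window in RefSeq (GRCm38.p6, 250 bases before the start of transcription and 50 after it) was at hand for 8 of the 9 members, and Idh3a was not among them. The 150 bases before the start are given for Cs, Mdh1 and Fh1, 5′ to 3′ on the gene's own strand, in lower case with each CCAAT box (CCAAT or its reverse ATTGG) in capitals.
Cs, chr10:128337577-128337726, plus strand: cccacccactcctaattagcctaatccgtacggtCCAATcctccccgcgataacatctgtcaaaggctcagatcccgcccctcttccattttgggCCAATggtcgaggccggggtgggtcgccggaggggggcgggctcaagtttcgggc
Mdh1, chr11:21571935-21572084, minus strand: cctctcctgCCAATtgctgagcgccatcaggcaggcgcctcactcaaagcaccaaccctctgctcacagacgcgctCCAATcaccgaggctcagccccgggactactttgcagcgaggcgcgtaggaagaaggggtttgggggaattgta
Fh1, chr1:175625636-175625785, minus strand: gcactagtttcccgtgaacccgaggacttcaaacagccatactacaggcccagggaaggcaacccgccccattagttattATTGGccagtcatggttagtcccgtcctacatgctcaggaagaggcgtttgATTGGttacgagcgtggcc
Each of the 3 stretches held 2 matches, which began 116 and 55 bases before the start in Cs, 141 and 74 in Mdh1, and 70 and 19 in Fh1. The start is that of the RefSeq window. The share of all genes with 2 matches in such a stretch was not worked out. The 3 genes were picked by their clodronate differences, none of which passed the test across all genes. In the GENCODE M21 annotation the Mdh1 gene runs from 21556787 to 21572367, so its printed stretch lies within the annotated gene. In the full windows, searched on both strands, a CCAAT box was found in 5 of the 8 members (Cs, Idh2, Ogdh, Fh1 and Mdh1) and in 41.1% of the 27025 genes with a window. The cyclic AMP element TGACGTCA was in 2 members, Ogdh and Mdh2, and in 2.03% of genes. The core letters of the NRF1 site, GCATGCGC, were in 1 member, Ogdh, and in 3.05% of genes, and those of an estrogen-related receptor site, TCAAGGTCA, were in 0 members and in 0.47% of genes. Ogdh has several windows, and a match in any of them was counted. A match is a run of letters in this window and does not show that a factor binds there.

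Reads came from QuantSeq, which reads a tag near the 3′ end of each transcript, so that levels can be set side by side between genes without a correction for length. Levels are in CPM, a gene's reads scaled to the same total in each library, and the authors had raised each value under 1 to 1. Libraries held 13256467 to 20484578 reads (median 16293026), of which 57.2% to 64.5% were assigned to genes. A member was covered by 276 to 4848 reads in a mouse, far above the 13 to 20 reads that a value at the floor can stand for. No other annotated gene overlapped the last 400 bases of any member on either strand, and no transcript of another gene matched the end of a member over 100 bases or more at 97% identity. The defining genes of fat tissue and of mammary epithelium were present. In each mouse 12 of 12 adipocyte markers summed to 16214 to 39255 CPM. The 12 epithelial markers, 11 of which were tested, summed to 898 to 3809 CPM. Macrophage markers (10 of 10 measured) did not separate the liposome groups. Their sum was 260 to 700 CPM in Control+PBS, 292 to 682 CPM in Wheel+PBS, 307 to 445 CPM in Control+Clodronate and 286 to 744 CPM in Wheel+Clodronate.

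Some mice stood apart in tissue content. Summed skeletal muscle markers ran from 26.1 to 30251 CPM, with the highest marker scores (the mean log2(CPM + 1) of a list) in Control+Clodronate 2, at 10.8, and Wheel+Clodronate 2, at 9.75. Lymphocyte scores were over 3 in 5 mice, Control+PBS 2, Wheel+PBS 3 and Wheel+Clodronate 3, 4 and 5, and at most 1.70 in the others. In bulk tissue a smaller share of a cell type and less RNA per cell cannot be told apart.

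Mdh2 and Mdh1 were the most abundant members and Idh2 the least. Over all 22 mice the mean level was 198 ± 35.1 CPM (SD, as below) for Mdh2, 178 ± 48.8 for Mdh1, 139 ± 36.2 for Cs, 131 ± 34.0 for Idh3a, 127 ± 21.4 for Ogdh, 89.7 ± 15.8 for Suclg1, 72.7 ± 15.7 for Idh3g, 57.2 ± 12.9 for Fh1 and 50.4 ± 15.9 for Idh2. Neighbours in this order differed by less than the larger of their SDs, except for the steps from Ogdh down to Suclg1 and from Suclg1 down to Idh3g. The ratio of the highest to the lowest mouse ran from 1.79 for Ogdh to 4.37 for Idh2. Summed over the 9 members, the level ran from 795 CPM in Wheel+Clodronate 3 to 1477 CPM in Control+PBS 1. Control+PBS 1 was the highest of all mice for 5 members.

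**Figure D1:**
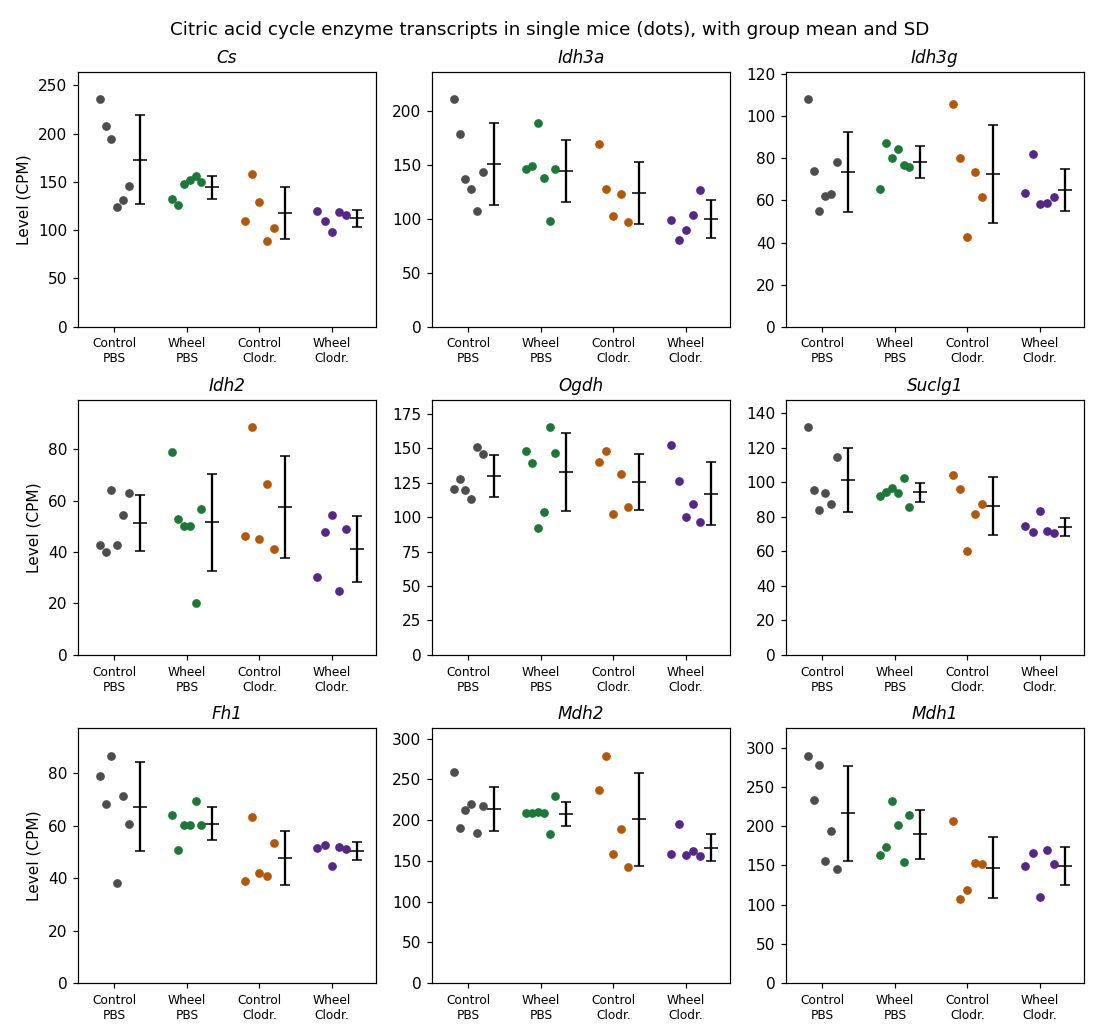
Levels (CPM, linear axes from 0) of the 9 cycle enzyme transcripts, 1 panel per gene, with a dot for each mouse and, beside each group, the mean and SD (6 Control+PBS, 6 Wheel+PBS, 5 Control+Clodronate and 5 Wheel+Clodronate mice). The Wheel+Clodronate dots of Cs and Suclg1 all lie below the Wheel+PBS dots, and those of Idh2 and Ogdh overlap them.

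The first question was whether running changed these transcripts, and with PBS liposomes no member differed beyond the spread between mice. Cs ran from 124 to 236 CPM (median 169.9) in Control+PBS and from 126 to 156 CPM (median 149) in Wheel+PBS. The wheel-running mice lay inside the range of the controls, which were spread more widely. The means were 173 ± 45.9 and 144 ± 11.9 CPM (n = 6 each), and the fitted difference, wheel minus control on the log2(CPM + 1) scale, was -0.22 (SE 0.15, adjusted p = 0.987). Mdh1 ran from 146 to 289.8 CPM (median 213) in Control+PBS and from 154 to 232 CPM (median 187) in Wheel+PBS, with a difference of -0.15 (SE 0.18, adjusted p = 0.987). Suclg1 ran from 84.1 to 132 CPM (median 94.6) and from 85.4 to 102 CPM (median 94.0), with a difference of -0.088 (SE 0.13, adjusted p = 0.991). The groups overlapped for all 3 genes.

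The other 6 members had differences between -0.11 (Fh1) and 0.12 (Idh3g), with adjusted p of 0.991 or more. By limma, 0 of the 9 members passed an adjusted p of 0.05, against 0% of the 15138 genes tested. At an unadjusted p under 0.05 the count was also 0 of 9, against 4.91% of genes. The median over the members was -0.066 and that over all genes -0.085. The sign of the small differences depended on the scaling. As deposited, 7 of 9 members were lower with the wheel, and 3 of 9 when mice were scaled to the same upper quartile, which moved the median of all genes to -0.0012. The 95% intervals bound what could have been missed, and for Cs the interval ran from -0.54 to 0.094 and for Ogdh, the member nearest to 0, from -0.30 to 0.32.

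With clodronate liposomes the wheel-running mice again did not separate from the controls for any member. Idh2 was at 46.3, 88.4, 44.9, 66.5 and 41.1 CPM in Control+Clodronate and at 30.4, 47.6, 54.2, 24.8 and 48.8 CPM in Wheel+Clodronate. The 2 lowest values were wheel-running mice and the 2 highest were controls, and the middle values overlapped. The difference was -0.47 (SE 0.29, adjusted p = 0.614), with the largest SE of the 9 in this comparison. Idh3a was at 169, 128, 102, 123 and 97.4 CPM in Control+Clodronate and at 99.2, 80.1, 89.4, 103 and 126 CPM in Wheel+Clodronate, with a difference of -0.30 (SE 0.19, adjusted p = 0.630).

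Mdh2 was at 237, 279, 158, 189 and 142 CPM in Control+Clodronate and at 158, 195, 158, 162 and 157 CPM in Wheel+Clodronate. The controls reached both higher and lower than the runners, and the difference was -0.24 (SE 0.15, adjusted p = 0.633). The other 6 members had differences from -0.19 (Suclg1) to 0.099 (Fh1). By limma 0 of 9 members were called, against 0.00661% of genes, and 0 of 9 had an unadjusted p under 0.05, against 10.4% of genes. The median was -0.12 for the members and 0.0045 for all genes. Without the 5 lymphocyte-rich mice, 3 of which are Wheel+Clodronate, the members' median was -0.012 and that of all genes -0.042. In that fit 5 of 9 members were lower, and 0 were called, against 12 of 15138 genes.

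The difference of the wheel effect between the liposomes was tested as an interaction. By limma 0 of 9 members were called, against 0% of genes, and 0 of 9 had an unadjusted p under 0.05, against 7.58% of genes. Idh2 had -0.40 (SE 0.39, adjusted p = 0.869), Mdh2 -0.20 (SE 0.20, adjusted p = 0.875) and Idh3a -0.25 (SE 0.25, adjusted p = 0.884) on the log2 scale. The other 6 ran from -0.24 (Idh3g) to 0.20 (Fh1).

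**Figure D2:**
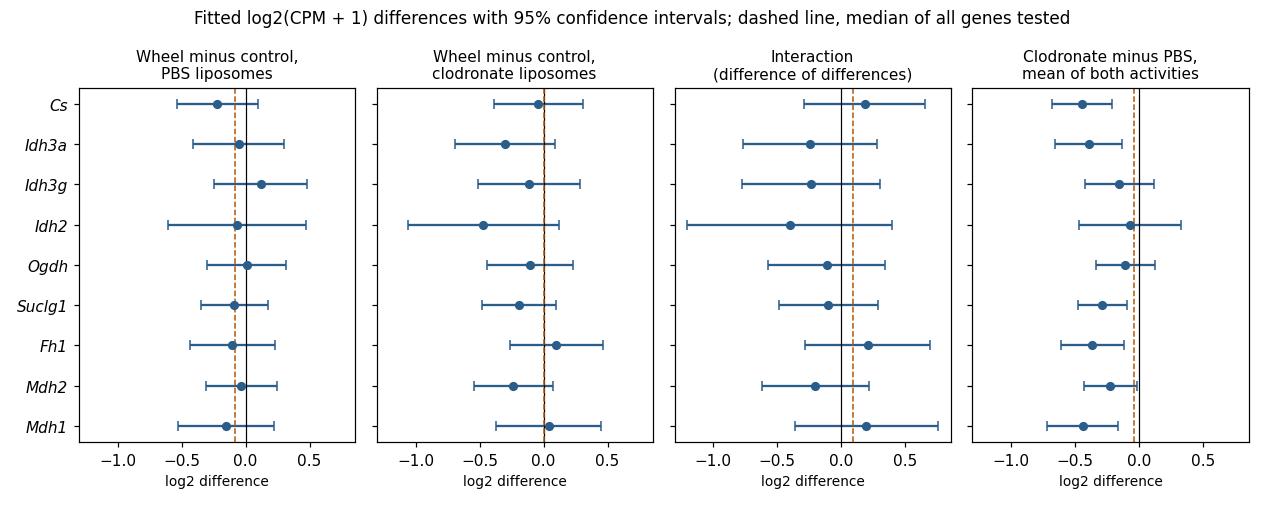
Fitted log2(CPM + 1) differences (dots) with 95% confidence intervals (bars) for the 9 members in the 4 comparisons, with the median of all genes tested as a dashed line and 0 as a solid line. All intervals cross 0 in the first 3 panels, and in the clodronate panel all 9 dots lie below 0, between -0.45 for Cs and -0.074 for Idh2.

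The second factor of the design, clodronate against PBS liposomes, was compared as an average over both activities. All 9 members had lower fitted means with clodronate, but none passed the test across all genes. Cs, the entry enzyme, was at 109.8, 158, 129, 88.3 and 102 CPM in Control+Clodronate and at 119, 109, 97.6, 119 and 116 CPM in Wheel+Clodronate, beside the PBS ranges of 124 to 236 and 126 to 156 CPM. Each Wheel+Clodronate mouse lay below each Wheel+PBS mouse, while Control+Clodronate 2 and 3 reached into the range of Control+PBS. The log2 difference was -0.45 (SE 0.11, 95% interval -0.69 to -0.22, adjusted p = 0.0899), a level 0.732 times that with PBS.

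Mdh1 was at 206, 107, 118, 153 and 151 CPM in Control+Clodronate and at 149, 166, 109, 170.0 and 152 CPM in Wheel+Clodronate. The groups overlapped, since Control+PBS reached down to 146 CPM and Wheel+PBS to 154 CPM. The difference was -0.44 (SE 0.13, adjusted p = 0.188). For Idh3a, with the values above for clodronate and ranges of 107 to 211 CPM (median 140.3) in Control+PBS and 97.8 to 188 CPM (median 146) in Wheel+PBS, the difference was -0.40 (SE 0.13, adjusted p = 0.215), and the groups overlapped in both activities.

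Suclg1, the ligase subunit, was at 104, 96.3, 60.2, 81.9 and 87.7 CPM in Control+Clodronate and at 74.9, 71.0, 83.2, 71.7 and 70.4 CPM in Wheel+Clodronate. As for Cs, all Wheel+Clodronate mice were below all Wheel+PBS mice, the nearest being 83.2 and 85.4 CPM. Fh1 was at 39.1, 63.3, 41.9, 40.9 and 53.3 CPM in Control+Clodronate and at 51.5, 52.7, 44.5, 52.1 and 51.1 CPM in Wheel+Clodronate, against 38.0 to 86.8 CPM (median 69.7) in Control+PBS and 50.7 to 69.6 CPM (median 60.3) in Wheel+PBS. The lowest Fh1 value of all was a PBS mouse, Control+PBS 4. The log2 differences were -0.29 for Suclg1 and -0.37 for Fh1. The other 4 members were closer to 0, at -0.23 for Mdh2, -0.16 for Idh3g, -0.11 for Ogdh and -0.074 for Idh2.

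By limma 0 of 9 members were called at an adjusted p under 0.05, against 0.205% of genes, 31 of 15138, all of them lower with clodronate. At an unadjusted p under 0.05, 6 of 9 were lower (Cs, Mdh1, Idh3a, Fh1, Suclg1 and Mdh2), against 8.3% of genes lower. The median was -0.29 over the members and -0.042 over all genes, of which 57.4% were lower. Without Control+PBS 4, in which Cs and Fh1 were the lowest of their group, 2 members were called, Cs and Fh1, and the genes called overall went from 31 to 70 of 15138. Over both activities together the clodronate values lay fully below the PBS values for 0 of 9 members, and for 0% of genes. In wheel-running mice 2 of 9 members, Cs and Suclg1, had clodronate values that all lay below the PBS values, as did 0.912% of genes. In control mice this held for 0 of 9 members and 0.575% of genes.

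Within each activity the members' differences had mostly the same sign. In control mice 8 of 9 members were lower with clodronate, from -0.54 for Cs to -0.040 for Idh3g, and Idh2 was higher at 0.13. In wheel-running mice all 9 were lower, from -0.52 for Idh3a to -0.17 for Ogdh. The medians of all genes were -0.10 in control mice and 0.00020 in wheel-running mice.

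The share of reads assigned to genes, the adipocyte markers and the lymphocyte markers also differed between the groups, by median mainly in Wheel+Clodronate. The share of reads assigned to genes had a median of 61.7% in Control+PBS, 60.6% in Wheel+PBS, 60.6% in Control+Clodronate and 57.8% in Wheel+Clodronate. With mice scaled to their assigned reads, the members' median was -0.24, all 9 were lower and 5 of 9 had an unadjusted p under 0.05. The median of all genes was then -0.0016. With upper-quartile scaling the members' median was -0.23, with all 9 lower and 5 under 0.05, and the median of all genes was 0.0042. Summed adipocyte markers (12 of 12 measured) ran from 23835 to 37910 CPM in Control+PBS, 24432 to 39255 in Wheel+PBS, 16214 to 38522 in Control+Clodronate and 19530 to 29013 in Wheel+Clodronate. Their medians were 27332, 29243, 31739 and 22200 CPM in that order, so Control+Clodronate was not below the PBS groups. With the adipocyte score as a covariate the members' median was -0.30, with 8 of 9 lower and 6 under 0.05. In that fit the median of all genes was -0.046, and 0 of 15138 genes were called.

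Summed lymphocyte markers (12 of 12 measured) ran from 39.1 to 438 CPM in Control+PBS, 29.4 to 552 in Wheel+PBS, 30.9 to 48.5 in Control+Clodronate, where the B cell genes Cd79a, Cd79b and Cd22 were at the floor in all mice, and 26.1 to 1273 in Wheel+Clodronate. Their medians were 52.6, 53.8, 32.6 and 799 CPM in that order. With the lymphocyte score as a covariate the members' median was -0.29, and without the 5 lymphocyte-rich mice it was -0.30, with 9 of 9 lower both times. The number under an unadjusted p of 0.05 was 5 with the covariate and 3 without those mice. The median of all genes was -0.058 with the covariate and -0.092 without those mice. Of 15138 genes, 27 were called with the covariate and 0 without those mice. With the skeletal muscle score as a covariate the members' median was -0.27, with 9 of 9 lower and 6 under 0.05, and the median of all genes was -0.041. The share of all genes at an unadjusted p under 0.05 was not worked out for these alternative fits.

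The rest of the cycle gave values of the same size. All 10 of the other cycle genes, subunits of succinate dehydrogenase among them, had lower fitted means with clodronate, with a median of -0.30. By limma 0 of 10 were called, against 0.205% of all genes. At an unadjusted p under 0.05, 8 of 10 were lower, against 8.3% of all genes. Dld, the dehydrogenase that the 2-oxoglutarate and pyruvate complexes share, had -0.46 (SE 0.13, adjusted p = 0.137), and Dlst, the transferase of the 2-oxoglutarate complex, had -0.32 (SE 0.10, adjusted p = 0.212).

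Among 12 genes for the entry of pyruvate, 1 was called, against 0.205% of all genes. Pdhb, the beta subunit of pyruvate dehydrogenase, fell with clodronate by 0.96 on the log2 scale (SE 0.20, adjusted p = 0.0430), to 0.514 times the PBS level. That call was lost under most other settings, and the adjusted p ran from 0.00315 to 0.105 over fits that left out 1 mouse each. Pdp2, a phosphatase that activates the complex, had -0.73 (adjusted p = 0.0826). Of the list, 8 were lower, and the leading genes above 0 were kinases that switch the complex off, Pdk2 at 0.45 (adjusted p = 0.497) and Pdk4 at 0.53 (adjusted p = 0.692), neither of which passed.

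The list of isoforms outside the cycle and feeding enzymes held the largest differences by value. Acly, which splits citrate in the cytosol to acetyl-CoA, had -1.86 (SE 0.41, adjusted p = 0.0527), and Me1, the cytosolic malic enzyme, had -1.49 (SE 0.37, adjusted p = 0.0885). The aminotransferases Got2 and Got1 had 0.17 and 0.25 (adjusted p = 0.793 and 0.841). Of the 10 tested genes of this list, 7 were lower and 0 called. Ogdhl was not above the floor in enough mice to be tested.

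Of the mitochondrial carriers 4 of 5 were lower and 0 called. Slc25a10, the dicarboxylate carrier, had -0.75 (adjusted p = 0.0899) and Slc25a1, the citrate carrier, -1.12 (adjusted p = 0.102), while Slc25a12, an aspartate-glutamate carrier, had 0.39 (adjusted p = 0.640). Of 6 regulators of mitochondrial genes 3 were lower and 0 called, among them Ppargc1a at -0.37 (adjusted p = 0.725), Esrra at -0.11 (0.879), Nrf1 at 0.24 (0.711) and Tfam at 0.11 (0.865). Over all 43 genes tested from these lists 32 were lower, against 57.4% of all genes, and 1 was called, against 0.205%. At an unadjusted p under 0.05, 21 were lower, against 8.3% of all genes.

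Leaving out Control+Clodronate 1, 10 of the 43 genes were called, Pdp2, Acly, Me1, Slc25a10 and Slc25a1 among them, but 0 of the 9 members, and the genes called overall went from 31 to 146 of 15138. In the 2 comparisons of wheel with control, 0 of the 43 were called, against 0% of all genes with PBS and 0.00661% with clodronate liposomes.

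Dissected mammary tissue holds varying amounts of muscle, fat, lymph node and epithelium, and the members were fitted on a marker score of each, with group means in the fit, to see how they vary between mice of a group. By limma 0 of 9 members were called on the skeletal muscle score, against 5.17% of genes, and 0 of 9 on the adipocyte score, against 6.78% of genes. The counts were also 0 of 9 on the brown fat score, against 0% of genes, on the lymphocyte score, against 7.09%, and on the mammary epithelium score, against 0.033%. At an unadjusted p under 0.05 the members numbered 1, 0, 1, 1 and 1 in that order, against 16.6%, 20.7%, 14.4%, 20.3% and 15.7% of genes.

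On the mammary epithelium score the largest absolute slope was that of Ogdh, 0.52 on the log2 scale (SE 0.14, adjusted p = 0.117). Ogdh had its highest level, 165 CPM, in Wheel+PBS 5, which also had the highest epithelial score, 6.27. Its lowest level, 92.2 CPM, was in Wheel+PBS 3, which had the lowest epithelial score, 4.94. Wheel+PBS 3 was also lymphocyte-rich, with a lymphocyte score of 4.94, and the part of each score in its Ogdh level was not tested. Idh3a and Cs had slopes of -0.34 (SE 0.19, adjusted p = 0.404) and -0.29 (SE 0.17, adjusted p = 0.419) on the same score. On the lymphocyte score Ogdh had -0.097 (SE 0.035, adjusted p = 0.102), Idh3a 0.074 (SE 0.044, adjusted p = 0.369) and Mdh2 -0.030 (SE 0.036, adjusted p = 0.697).

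Slopes are per unit, and the skeletal muscle score ran from 1.53 to 10.8, the epithelium score from 4.94 to 6.27. The size of a slope can therefore not be compared between these scores. On the muscle score Idh3a had -0.060 (SE 0.023, adjusted p = 0.170), Mdh1 -0.049 (SE 0.026, adjusted p = 0.357) and Fh1 0.037 (SE 0.024, adjusted p = 0.469). The mice with the most muscle RNA were high for some members and low for others. Control+Clodronate 2, with the highest muscle score, had the highest Idh2 (88.4 CPM) and Mdh2 (279 CPM) of all mice but also the lowest Mdh1 (107 CPM), and Wheel+Clodronate 2 had the lowest Idh3a (80.1 CPM). Without the 2 mice farthest from the median score the members' median slope moved from 0.0062 to -0.035, and 7 members had slopes below 0, against 4 with all mice. By limma 0 members were called in that fit, against 86 of 15138 genes, where 783 were called with all mice. The members with an unadjusted p under 0.05 numbered 3 in that fit, against 1 with all mice.

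On the adipocyte score Cs had -0.29 (SE 0.15, adjusted p = 0.268), Ogdh 0.25 (SE 0.15, adjusted p = 0.355) and Mdh1 0.30 (SE 0.18, adjusted p = 0.366). On the brown fat score Cs had 0.28 (SE 0.11, adjusted p = 0.251), Mdh2 0.18 (SE 0.11, adjusted p = 0.470) and Idh2 -0.24 (SE 0.21, adjusted p = 0.671). Of the 6 brown fat markers 5 were tested, and Ucp1 was at the floor in all Wheel+Clodronate mice. The highest brown fat score, 3.97, was in Control+Clodronate 2, which also had the highest muscle score. The next, 3.93, was in Control+PBS 2, with a muscle score of 3.88. The part of muscle in the brown fat score was not tested. The remaining slopes ran from -0.45 (Idh2 on the epithelium score) to 0.37 (Idh2 on the adipocyte score).

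**Figure D3:**
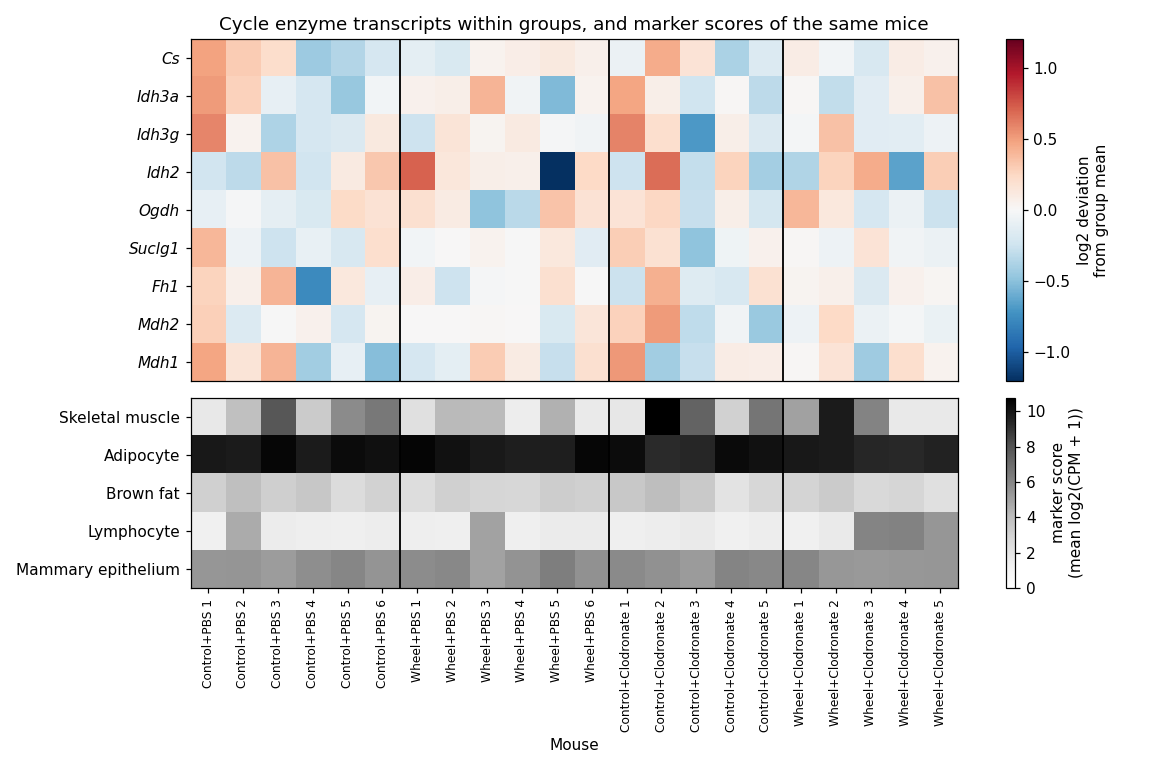
Upper panel, deviation of each of the 22 mice (columns) from its group mean on the log2(CPM + 1) scale for the 9 members (rows, red above and blue below the mean). Lower panel, marker scores of the same mice. Control+PBS 1 is red for 7 members, and the dark muscle columns of Control+Clodronate 2 and Wheel+Clodronate 2 and the lymphocyte columns of Wheel+Clodronate 3 to 5 can be compared with the members above them.

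The members moved together only in part. Pearson's r of log2(CPM + 1) over the 22 mice, after group means were removed, is given here as a description, since the values of a mouse share a library and its depth. Over the 36 pairs it ran from -0.23 (Idh3a with Ogdh, Spearman's rho -0.088) to 0.80 (Idh3g with Suclg1, rho 0.63), with a median of 0.19 and 29 pairs above 0. Cs and Fh1 had 0.67 (rho 0.59) and Idh3g and Mdh2 0.67 (rho 0.59). Idh2 and Ogdh were the least like the others, with a mean r of 0.041 and 0.055, and Idh3g and Mdh2 the most, with 0.36 each.

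Outside the set, the 5 genes with the highest mean r over the members were Atp5b (0.46), the beta subunit of ATP synthase, Park7 (0.46), Ndufs1 (0.45), a subunit of respiratory complex I, Chchd3 (0.43), of the inner mitochondrial membrane, and Ehbp1l1 (0.42). The median over all genes was -0.014. Among the other cycle genes the mean r was 0.37 for Idh3b and 0.30 for Sdha, and it was -0.055 for Suclg2.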

How the data were processed

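RNA of the mammary tissue of 22 mice was sequenced with QuantSeq, and groups and replicate numbers came from the sample labels. The tables the authors deposited list a signal in CPM for every gene of a mouse, and hold no value under 1, the floor to which lower ones were raised. STAR 2.5.3a and the build GRCm38 are named in the submitters' processing notes, and the annotation, counting and use of strand are not given in the sources used here. Above the floor 100% of values were whole multiples of a read (tolerance 0.1 read), but reads at the floor are lost, so no count test was used. Rows of unassigned reads are part of the total and stayed out of tests. Where a symbol had several rows (106 symbols), that of the highest mean was used.

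The test was limma 3.58.1 (R 4.3.3) on log2(CPM + 1), which understates changes near the floor, for genes over the floor in 5 mice or more, with 4 group means, an eBayes variance trend, two-sided tests and Benjamini-Hochberg adjustment over 15138 genes. Slopes added a marker score to the fit. The step was tested on simulated data with known answers. Positions came from GENCODE M21, and transcript ends were compared with BLAST 2.17.0. Levels and scores were computed with pandas 2.3.3 and numpy 2.4.6 (Python 3.11.15).

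The members and the gene lists were chosen with earlier results of these data known. All members were named, in each fit the 3 with the largest absolute t in full, and for clodronate up to 2 genes each way from each other list by absolute t and any past an adjusted p of 0.05. Alternatives were pseudocounts of 0.1 and 5, other filters, upper-quartile scaling, no variance trend, only the groups compared, a replicate block, the muscle covariate and leaving out each mouse. The lymphocyte and adipocyte covariates, leaving out lymphocyte-rich mice, scaling to assigned reads and the count over other pathway genes were added after seeing the data. Some genes of the lists are not reported here by name.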

Additional observations from a re-analysis of the deposited data

Results flagged for a closer look

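In each group of 5 or 6 mice, a value was marked where the gap between the highest or lowest mouse and its nearest neighbour took up more of the group's range than Dixon's 95% critical value allows. Over 36 groups of member values 3 were marked, and chance marks about 1 in 20 groups. All 3 were Wheel+Clodronate mice, a group whose other values lay close together. Idh3g was 82.2 CPM in Wheel+Clodronate 2, with the next mouse at 63.4 CPM, and Mdh2 was 195 CPM in the same mouse, with the next at 162 CPM. Fh1 was 44.5 CPM in Wheel+Clodronate 3, with the next at 51.1 CPM. Wheel+Clodronate 2 had a skeletal muscle score of 9.75 and Wheel+Clodronate 3 a lymphocyte score of 6.02, and their part in these values was not tested.

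Over 20 groups of marker scores 3 were marked. Lymphocyte scores were 4.65 in Control+PBS 2, with the next mouse at 1.58, and 4.94 in Wheel+PBS 3, with the next at 1.60. The mammary epithelium score was 6.01 in Wheel+Clodronate 1, with the next mouse at 5.35. The summed level of the 9 members marked 0 of 4 groups.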

How the results depend on the processing

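The count of members called was 0 in the 3 comparisons with activity and in the 5 slopes under every alternative that was run, leaving out each mouse included. For clodronate against PBS it was 0 under every alternative other than leaving out single mice, where it ran from 0 to 2, with 2 without Control+PBS 4, where 70 of 15138 genes were called overall. Over fits without 1 mouse the members' median ran from -0.33 to -0.23, and 8 or 9 of 9 were lower.

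The replicate numbers are shared by different mice, and the mean r of same-numbered mice across genes was -0.075 between the PBS groups, 0.18 between the clodronate groups, 0.096 between the control groups and 0.13 between the wheel groups, with single pairs from -0.39 to 0.52, and in 5 of 21 comparisons a mouse was most like the mouse of its own number. In each clodronate group the mouse numbers of the titles skip a number just before replicate 5. Replicate 5 there may therefore not be the counterpart of replicate 5 in the PBS groups. With the replicate number as a block, 0 members were called by limma in each comparison of groups, and the clodronate median was -0.28. Of the 43 other pathway genes 0 were called, Pdhb having -1.01 (adjusted p = 0.0874), while the count over all genes went from 31 to 11.

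The count of other pathway genes called for clodronate, 1 as reported, was 2 with a pseudocount of 0.1, a mean of at least 5 CPM or the lymphocyte covariate. It was 0 with no filter, upper-quartile scaling, no trend, the muscle or adipocyte covariate, scaling to assigned reads, or without lymphocyte-rich mice, and 0 to 10 over fits without 1 mouse. The cause was not tested. Values that changed sign were Suclg1 with PBS, 0.011 under upper-quartile scaling, and, for clodronate, Got1, -0.018 with the muscle and -0.29 with the adipocyte covariate, Got2, -0.056 with the adipocyte covariate, and Tfam, -0.023 without lymphocyte-rich mice and -0.0065 without Wheel+PBS 5 (up to 0.23 without Wheel+Clodronate 2). Of 1427 alternative values of 44 named results, 1388 kept both direction and side of the threshold. All genes called for clodronate numbered 12 under upper-quartile scaling, 54 under the filter at a mean of 5 CPM, 0 with the adipocyte covariate and 9 to 146 over fits without 1 mouse.

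The median of 16293026 reads per mouse puts the members far above the floor, and how counting error and the spread between mice share in their errors was not tested.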
